A study of Mus musculus with 36 samples.

Results

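The genes of 4 families of splicing proteins were followed across the 12 groups of a prostate cancer coculture experiment. They were the SR proteins (symbols beginning with Srsf), the heterogeneous nuclear ribonucleoproteins or hnRNPs (Hnrnp), the subunits of the SF3a and SF3b complexes (Sf3a, Sf3b) and the core proteins of the small nuclear ribonucleoproteins or snRNPs (Snrp). Members were defined by a rule on names, and they were chosen with earlier results of these data known. The rule took every gene identifier annotated as protein coding whose symbol starts with one of these stems. For all but the hnRNPs and Snrp genes a digit had to follow the stem. This gave 53 of the 46078 gene identifiers in the count tables. No read was counted in any of the 36 libraries for Srsf12, for Snrpn or for the second of the 2 identifiers that carry the symbol Srsf1. The other 50 passed the filter on low counts in every fit: 10 SR proteins, 20 hnRNPs, 3 SF3a subunits, 6 SF3b subunits, 7 Sm proteins, 2 U1 snRNP proteins and 2 U2 snRNP proteins.

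Introns are removed from pre-mRNA by the spliceosome, which assembles anew on each intron from snRNPs. Each spliceosomal snRNP of the U1, U2, U4 and U5 classes is a small RNA held in a ring of Sm proteins, with further proteins particular to it. U1 marks the 5′ splice site, and U2 pairs with the branch site, where the SF3a and SF3b complexes, parts of the U2 snRNP, hold the branch site helix. SR proteins bind exonic enhancers through RNA recognition motifs and recruit the splicing machinery through domains rich in arginine and serine. HnRNPs coat nascent RNA and often oppose exon inclusion. Many genes of both families regulate their own mRNA by splicing in an exon that leads to nonsense-mediated decay.

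The study sequenced RNA from RM-1-BM cells, a mouse prostate cancer line, and from RAW264.7 cells, a mouse macrophage line, in 3 libraries per group. RM-1-BM cells had been transduced with SPOP carrying F133V, a prostate cancer mutation in the adaptor through which a cullin 3 ligase picks its substrates, or with the empty vector. They were grown alone or with the macrophages in transwells, where medium is shared through a membrane, and received olaparib, an inhibitor of the DNA repair enzyme PARP, or the DMSO vehicle. Cancer cells therefore formed 8 groups: F133V cells with olaparib or DMSO in coculture, F133V cells with olaparib or DMSO in monoculture, and vector cells in the same 4 settings. The macrophages formed 4 groups, all from cocultures: partners of F133V cells with olaparib or DMSO, and partners of vector cells with olaparib or DMSO. Macrophages grown alone are not analysed here. Cancer cells of either genotype also hold their own Spop gene. The group labels of the macrophages name the line, the partner and the treatment, and do not state whether the macrophages were transduced. The genotype label of 1 macrophage group reads F133V. The sources used here do not state the olaparib dose and time, or whether the F133V cells were a clone or a pool, or whether replicates are separate cultures. If they are not, the p-values measure only a technical spread.

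Reads assigned to genes numbered 32063028 to 43062440 per cancer cell library and 30292309 to 37340425 per macrophage library. Values are CPM, the usual per-library scaling of counts, after correction by the trimmed mean of M values (TMM), and groups are given as the mean ± SD of 3 libraries. Spop, whose gene count does not separate mutant from endogenous reads, averaged 96.8 ± 2.91 CPM in F133V cells and 125 ± 1.88 CPM in vector cells cocultured in DMSO, and 114 ± 1.40 CPM in F133V cells and 119 ± 0.228 CPM in vector cells cocultured with olaparib. In monoculture it averaged 106 ± 1.57 CPM in F133V cells and 117 ± 2.65 CPM in vector cells with DMSO, and 103 ± 6.75 CPM in F133V cells and 111 ± 1.65 CPM in vector cells with olaparib. The transduced copy was therefore not visible as a higher Spop count, the counts do not check the genotype labels, and F133V and vector are used as labelled. The 12 macrophage markers summed to between 9080 and 10900 CPM in the macrophage libraries and to between 10.2 and 20.3 CPM in the cancer cell libraries. Of the 10 epithelial and prostate markers, Hoxb13 had 0 reads in every cancer cell group but vector cells grown alone in DMSO, and Pbsn in all but F133V cells cocultured with olaparib. The 10 summed to 367 to 394 CPM in F133V cells cocultured in DMSO and to 65.0 to 182 CPM in the other 7 cancer cell groups. The 4 mesenchymal markers (Vim, Col1a1, Col3a1 and Fn1) summed to between 2650 and 5240 CPM in F133V cells and between 5620 and 11400 CPM in vector cells, over all 4 settings.

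Per kilobase of annotated exon, with all 36 libraries on 1 scale, Hnrnpab, an hnRNP of the A/B type, was the most abundant member in all 12 groups, at 134 to 196 CPM per kb. The lowest value per kb was that of Hnrnpr in most groups, and of Hnrnpll or Snrpc in the others. The length used takes in every annotated exon of a gene, 22199 bases over 11 transcripts for Hnrnpr. It can exceed the length of the mRNA present, so a low value per kb need not mean a low count. On the TMM scale the median member stood at 31.4 CPM per kb in F133V cells cocultured in DMSO and at 24.3 to 28.9 CPM per kb in the other cancer cell groups. By library size alone the members' median log2 fold change between F133V and vector cocultures in DMSO was -0.02. In macrophages the median member on the TMM scale stood at 27.4 CPM per kb opposite F133V cells in DMSO and 22.4 opposite F133V cells in olaparib, against 23.3 and 23.9 opposite vector cells in DMSO and olaparib.

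Sf3b3 is on chromosome 8 (chr8:110810239-110846787, minus strand, GRCm38, GENCODE M21), Sf3b2 on chromosome 19 (chr19:5273932-5295455, minus strand) and Srsf4 on chromosome 4 (chr4:131873617-131901706, plus strand). Promoter windows of 300 bases from RefSeq (build GRCm38.p6, 250 bases before to 50 after each annotated start) were matched by symbol to 46 members with 63 windows, and windows of 1 gene can overlap. The ETS-type motif CCGGAAG, read on both strands, was found in 21 of the 63 windows (33.3%), belonging to 16 members, and in 8.86% of all 32851 windows. The CCAAT box was in 44.4% of the members' windows against 37.4% of all windows, the E-box CACGTG in 11.1% against 7.15%, and the TATA box TATAAA in 11.1% against 13.6%. The 80 bases around the ETS-type match are shown for Sf3b3 and Sf3b2, which had the largest rises in F133V against vector cocultures with DMSO, and for Srsf4, which with Sf3b3 had the largest falls with olaparib in F133V cocultures, on the gene's own strand and with the match in capitals. In Sf3b3 (chr8:110846974-110847053, minus strand), Sf3b2 (chr19:5295458-5295537, minus strand) and Srsf4 (chr4:131873391-131873470, plus strand) the match begins 229, 11 and 210 bases before the start. A match is a string in the sequence, and binding was not measured. Whether the motif goes with a change in level was not tested. In F133V against vector cocultures with DMSO, Hnrnph3 and Hnrnpdl were also higher by more than 1.5 times, and their windows hold no ETS-type match. Sf3a3, which was lower there, has a match, and Sf3b4 was matched to no window.
Sf3b3: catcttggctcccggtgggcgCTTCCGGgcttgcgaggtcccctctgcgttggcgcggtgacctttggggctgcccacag
Sf3b2: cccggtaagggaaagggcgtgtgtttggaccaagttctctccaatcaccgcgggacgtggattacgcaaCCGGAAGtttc
Srsf4: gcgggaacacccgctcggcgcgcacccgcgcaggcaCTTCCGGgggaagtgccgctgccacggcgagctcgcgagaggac

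Across the 8 cancer cell groups, the highest group mean of a member was a median of 1.40 times its lowest, and 15 of the 50 members varied by more than 1.5 times. Sf3b3 varied most, at 1.97 times, followed by Sf3b2 at 1.85, Sf3b4 at 1.82, and Hnrnpa0 and Srsf4 at 1.77. On the TMM scale the highest mean was in F133V cells cocultured in DMSO for 27 of the 50 members. How many of all genes peaked in that group was not counted. With counts scaled by library size alone, the members' log2 fold changes there shifted by -0.25 against vector cocultures in DMSO. Against F133V monocultures in DMSO they shifted by -0.21. Across the 4 macrophage groups the median ratio was 1.17 and no member reached 1.5. On the TMM scale 31 members were highest opposite F133V cells in DMSO and 34 were lowest opposite F133V cells in olaparib. The same counts were not made over all genes. The coefficient of variation among the 3 libraries of a group had a median over members of 2.28% in cancer cells and 1.69% in macrophages. In bulk RNA, fewer cells of a type and less RNA per cell cannot be told apart.

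**Figure D1:**
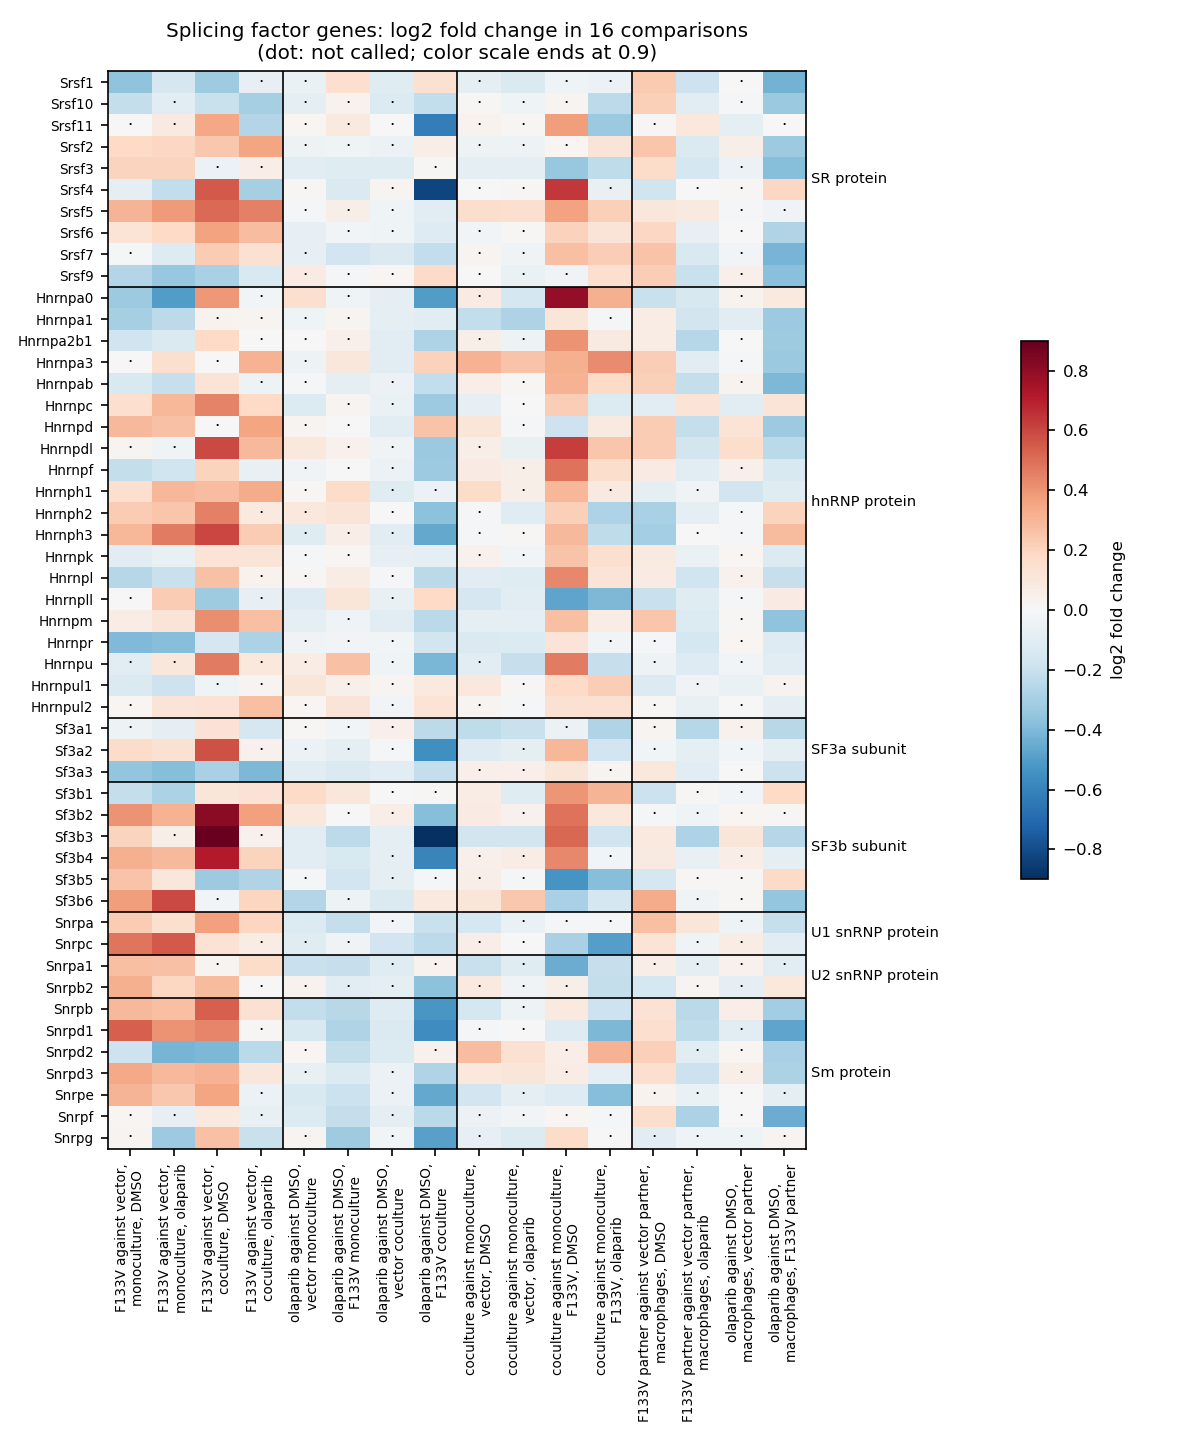
Log2 fold changes of the 50 tested members (rows, by role) in 16 comparisons of 2 groups (columns), with red for higher in the first-named group, blue for lower, and dots for members not called at an adjusted p under 0.05. F133V against vector in coculture with DMSO shows 35 members higher and 8 lower on the TMM scale, where 37.4% and 42% of all genes were. Olaparib against DMSO in F133V coculture shows 9 higher and 35 lower, where 39.3% and 37% of all genes were. By library size alone the members' counts are 19 and 24, and 19 and 19, with 34.7% and 63.5% of all calls higher.

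In monoculture with DMSO, F133V cells differed from vector cells in opposite directions for different classes of member. The SF3b subunits, Sm proteins and U1 and U2 proteins were mostly higher in F133V cells, and hnRNPs were called more often lower than higher. Of the 50 members 24 were higher and 16 lower by edgeR's quasi-likelihood test at a Benjamini-Hochberg adjusted p under 0.05, where 33.7% of all 15962 tested genes were higher and 34% lower. The median log2 fold change was 0.03 over the members and 0.00 over all genes. By class, 5 of 6 SF3b subunits rose and 1 fell, 4 of 7 Sm proteins rose and 1 fell, and all 4 U1 and U2 proteins rose, and these counts were the same when counts were scaled by library size alone. Among the 20 hnRNPs 6 rose and 9 fell, or 4 and 14 by library size alone, and among the 10 SR proteins 4 rose and 4 fell, or 3 and 6. Mesenchymal markers summed to 2940 to 2980 CPM in these F133V cells and 9760 to 9940 CPM in vector cells, and their part in the members' change was not tested.

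Snrpd1, a subunit of the Sm ring, had 46.7, 45.3 and 46.7 CPM in F133V cells, against 32.1, 31.6 and 31.5 CPM in vector cells. All 3 F133V libraries were above all 3 vector libraries, with a log2 fold change of 0.54 ± 0.038 (SE) and an adjusted p of 1.03e-15. Snrpc, a U1 protein that stabilises pairing with the 5′ splice site, had 47.3, 46.9 and 44.8 CPM in F133V cells and 33.7, 33.5 and 32.3 CPM in vector cells (0.48 ± 0.044, adjusted p = 1.72e-12). Sf3b6, the small SF3b subunit that contacts the branch site, averaged 64.8 ± 2.09 CPM in F133V cells and 49.9 ± 0.692 CPM in vector cells (0.38 ± 0.035). Sf3b2, another SF3b subunit, averaged 294 ± 3.74 CPM in F133V cells and 222 ± 1.57 CPM in vector cells (0.40 ± 0.025). These groups did not overlap. In the other direction, Hnrnpr fell to 80.7 ± 1.73 CPM in F133V cells, against 106 ± 1.88 CPM in vector cells (-0.40 ± 0.034). Srsf1, an SR protein that also acts in mRNA export and decay, averaged 205 ± 5.12 CPM in F133V cells and 264.2 ± 15.2 CPM in vector cells (-0.36 ± 0.039). Both were lower in every F133V library than in every vector library. Sf3a3, the SF3a60 subunit, averaged 44.4 ± 0.978 CPM in F133V cells and 56.6 ± 1.43 CPM in vector cells (-0.35 ± 0.039). Hnrnpa0, which binds AU-rich elements, averaged 160.3 ± 9.00 CPM in F133V cells and 201 ± 2.79 CPM in vector cells (-0.32 ± 0.033). The adjusted p-values of these 6 members ran up to 2.25e-10 in edgeR's test.

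With olaparib in monoculture, 26 of 50 members were higher and 18 lower in F133V cells than in vector cells, where 34.3% of all genes were higher and 33.2% lower. Mesenchymal markers summed to 3720 to 3820 CPM in F133V cells and 11200 to 11400 CPM in vector cells there, and their part was not tested. Of these, 1 member was higher by more than 1.5 times, against 11.1% of all genes. That member, Sf3b6, averaged 62.7 ± 2.58 CPM in F133V cells and 41.4 ± 0.236 CPM in vector cells, a log2 fold change of 0.60 ± 0.036 (adjusted p = 1.11e-17). Snrpc averaged 45.2 ± 2.08 CPM in F133V cells and 30.8 ± 0.712 CPM in vector cells (0.55 ± 0.044). Hnrnpa0 fell to 156 ± 2.14 CPM in F133V cells, against 222 ± 7.09 CPM in vector cells (-0.50 ± 0.033), and Snrpd2, another Sm protein, to 26.8 ± 0.648 CPM in F133V cells, against 35.9 ± 0.505 CPM in vector cells (-0.42 ± 0.043). Hnrnpr and Sf3a3 were lower in F133V cells by log2 fold changes of -0.39 ± 0.034 and -0.38 ± 0.039.

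In coculture with DMSO, F133V cells had higher levels than vector cells of most members on the TMM scale, and the 3 largest rises were in subunits of SF3b. There, 35 of 50 members were higher and 8 lower, where 37.4% of all genes were higher and 42% lower, and the median log2 fold change was 0.23 over the members and -0.06 over all genes. Sf3b3, Sf3b2, Sf3b4, Hnrnph3 and Hnrnpdl, 5 of the 50, were higher by more than 1.5 times, against 22.2% of all genes, and by library size alone Sf3b3 was the 1 member higher by that much, against 14.9% of all genes. These counts depended on the scale: by library size alone, which moved the median of all genes to -0.31, 19 members were higher and 24 lower with a median of -0.02, and of all calls 34.7% were higher, against 47.1% on the TMM scale. That scale shifted the log2 fold change of every member by -0.25. By class, 14 of 20 hnRNPs rose and 2 fell (7 and 11 by library size alone), and 6 of 10 SR proteins rose and 3 fell (4 and 4). Of 7 Sm proteins 6 rose and 1 fell (3 and 2), and of 6 SF3b subunits 4 rose and 1 fell (3 and 3). Members took 0.847 to 0.873% of gene counts in F133V libraries and 0.855 to 0.881% in vector libraries, ranges that overlapped. Of the counts of protein-coding genes alone, they took 0.945 to 0.958% in F133V libraries and 0.922 to 0.945% in vector libraries. The noncoding gene Gm26917 took 3.47 to 3.65% of counts in the same F133V libraries and 0.249 to 0.269% in the vector libraries, and its part in the scaling was not tested. The 10 epithelial and prostate markers summed to 367 to 394 CPM in these F133V libraries, with no reads of Cdh1, Hoxb13 or Pbsn, and to 120 to 125 CPM in the vector libraries, with no reads of Hoxb13 or Pbsn. The 4 mesenchymal markers summed to 2650 to 2760 CPM in the F133V libraries and 5620 to 5690 CPM in the vector libraries, and the part of either in the members' change was not tested.

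**Figure D2:**
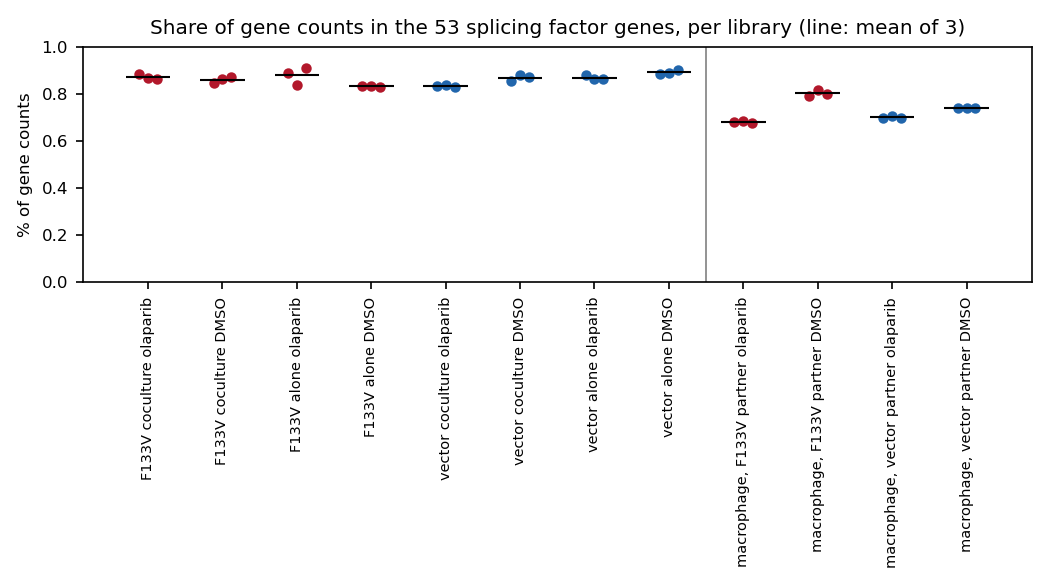
Percent of each library's gene counts that fell on the members, with 1 point per library and a bar at the mean of the 3 libraries in each of the 12 groups. F133V and vector cocultures in DMSO overlap at 0.847 to 0.873% and 0.855 to 0.881%, while macrophages opposite F133V cells lie at 0.679 to 0.687% with olaparib and 0.793 to 0.817% with DMSO.

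Sf3b3, the SF3b130 subunit, had 389, 393 and 387 CPM in F133V cocultures, against 213, 204 and 214 CPM in vector cocultures. The F133V libraries were far above the vector libraries, with a log2 fold change of 0.89 ± 0.027 (adjusted p = 7.75e-28), or 0.64 by library size alone. Sf3b2, the SF3b145 subunit that binds RNA near the branch site, had 406, 422 and 407 CPM in F133V cocultures and 232, 235 and 235 CPM in vector cocultures (log2 fold change 0.82 ± 0.024, adjusted p = 6.43e-28; 0.56 by library size alone). Sf3b4, the SF3b49 subunit, had 116, 121 and 116 CPM in F133V cocultures and 72.7, 71.3 and 71.0 CPM in vector cocultures (0.71 ± 0.031, adjusted p = 2.23e-22; 0.46). All 3 rose on either scale without overlap. Their partner Sf3b5, the SF3b10 subunit, fell to 33.4 ± 0.836 CPM in F133V cocultures, against 41.8 ± 2.23 CPM in vector cocultures (-0.33 ± 0.042, adjusted p = 5.34e-09).

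Among the Sm proteins, Snrpb, which forms the SmB and SmB′ proteins, averaged 164 ± 6.59 CPM in F133V cocultures and 113 ± 2.57 CPM in vector cocultures (0.54 ± 0.038, adjusted p = 4.33e-16). Snrpd1 averaged 42.7 ± 0.269 CPM in F133V cells and 31.5 ± 0.741 CPM in vector cells (0.44 ± 0.039), whereas Snrpd2 fell to 32.4 ± 1.15 CPM in F133V cocultures, against 43.0 ± 1.03 CPM in vector cocultures (-0.40 ± 0.042). In all 3 genes the groups did not overlap. Hnrnph3, an hnRNP H/F protein, averaged 31.6 ± 1.08 CPM in F133V cocultures and 20.9 ± 0.390 CPM in vector cocultures (0.60 ± 0.055, adjusted p = 1.32e-12; 0.35 by library size alone). Hnrnpu, a nuclear matrix and chromatin-associated hnRNP, averaged 162 ± 11.9 CPM in F133V cocultures and 116 ± 10.1 CPM in vector cocultures (0.47 ± 0.066), and Srsf6 averaged 249 ± 6.29 CPM in F133V cells and 194 ± 4.19 CPM in vector cells (0.36 ± 0.024). Srsf1 fell to 199.7 ± 5.01 CPM in F133V cocultures, against 249 ± 13.1 CPM in vector cocultures (-0.32 ± 0.040), and Hnrnpll, known in mouse T cells for regulating Ptprc exons, to 43.6 ± 1.36 CPM in F133V cells, against 54.4 ± 1.33 CPM in vector cells (-0.32 ± 0.037). The adjusted p-values of these 6 members ran up to 4.71e-08, and each kept its direction and its call by library size alone, at log2 fold changes of 0.19 for Snrpd1, 0.22 for Hnrnpu, 0.11 for Srsf6, -0.66 for Snrpd2, -0.57 for Srsf1 and -0.57 for Hnrnpll.

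**Figure D3:**
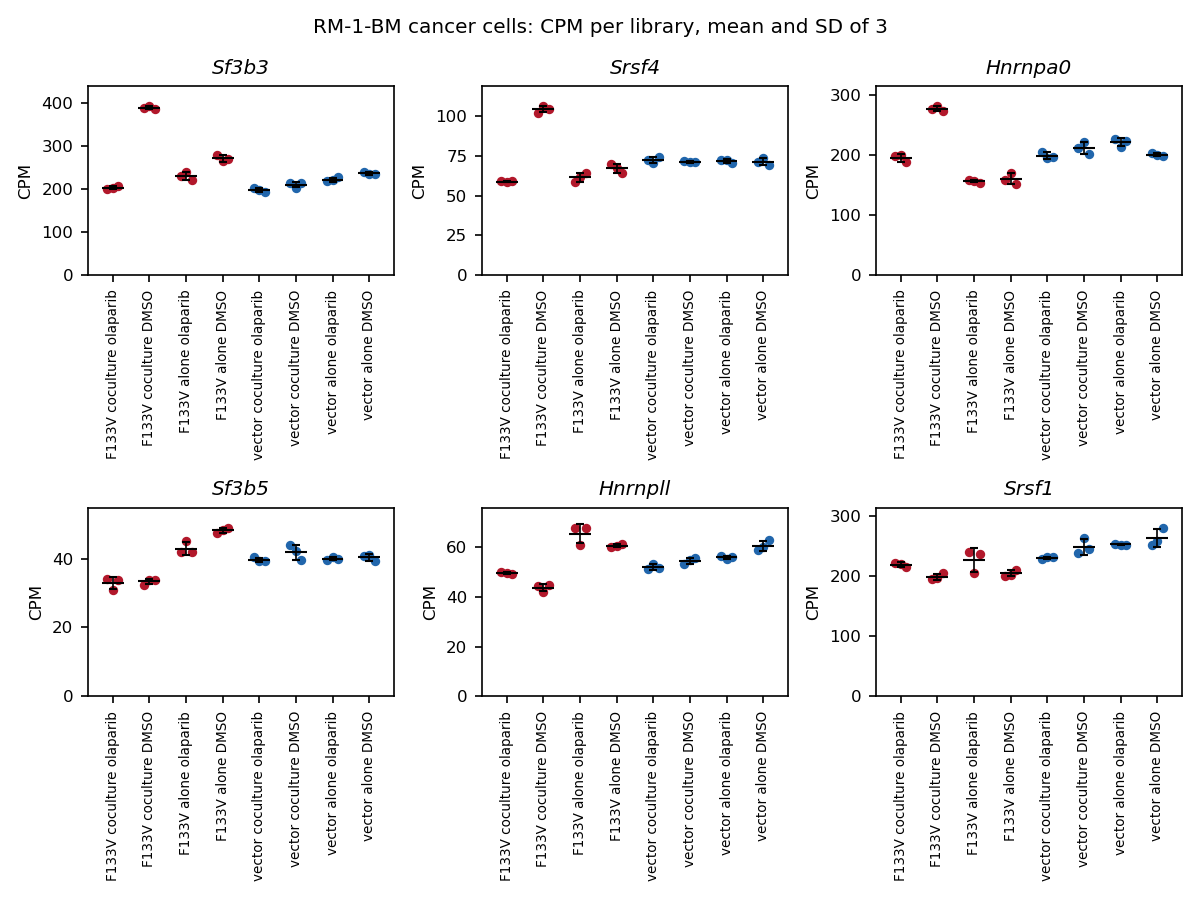
CPM on the TMM scale of 6 members in the 8 cancer cell groups, with 1 point per library, a bar at the mean of 3 and whiskers of 1 SD. Sf3b3 reaches 387 to 393 CPM in F133V cocultures with DMSO, against 204 to 214 CPM in vector cocultures with DMSO, and Srsf4 and Hnrnpa0 also peak in that F133V group, while Sf3b5, Hnrnpll and Srsf1 do not.

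Other genes of the spliceosome were counted from lists by function. These lists were chosen with earlier results of these data known, so their counts are not an independent test. In the same comparison all 17 tested genes of branch site and early recognition were higher (14 higher and 0 lower by library size alone), where 37.4% of all genes were higher and 42% lower, with a median log2 fold change of 0.83. Sf1, which binds the branch point before U2 arrives, had 614, 617 and 616 CPM in F133V cocultures, against 274, 284 and 281 CPM in vector cocultures (1.14 ± 0.023, adjusted p = 1.67e-33). Of 21 SR-related proteins and SR kinases 17 were higher and 1 lower (16 and 4), and Clk2, a kinase of SR proteins, averaged 148 ± 1.36 CPM in F133V cocultures and 65.0 ± 0.675 CPM in vector cocultures (1.18 ± 0.032). Of 10 nonsense-mediated decay factors 8 were higher and 1 lower (7 and 2), with Smg5 at 272 ± 4.96 CPM in F133V cells and 139 ± 5.92 CPM in vector cells (0.98 ± 0.027). The exon junction complex and export list had 14 of 16 higher and 1 lower (13 and 2), and the catalytic and PRP19 complexes 18 of 22 higher and 2 lower (14 and 5). Other splicing regulators had 22 of 32 higher and 8 lower (16 and 12), snRNP assembly factors 11 of 17 higher and 2 lower (8 and 5), and U1, U5, U4/U6 and minor spliceosome proteins 11 of 20 higher and 8 lower (10 and 9). Of 10 LSm proteins 2 were higher and 6 lower (1 and 8).

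With olaparib in coculture, 21 of 50 members were higher and 11 lower in F133V cells than in vector cells, where 28.8% of all genes were higher and 31.2% lower. Srsf5 averaged 313 ± 2.30 CPM in F133V cells and 229 ± 4.28 CPM in vector cells (0.45 ± 0.028, adjusted p = 3.69e-17). Sf3b2 averaged 315 ± 2.98 CPM in F133V cells and 244 ± 3.65 CPM in vector cells (0.37 ± 0.024). Srsf2, which binds exonic enhancers, averaged 293 ± 4.93 CPM in F133V cells and 229 ± 3.80 CPM in vector cells (0.36 ± 0.023). These groups did not overlap. Srsf2 shares exon bases with Mfsd11, which had 134 to 135 CPM in F133V cells and 112 to 120 CPM in vector cells. It also shares some with Mettl23, at 15.4 to 17 CPM in F133V cells and 16.5 to 18.9 CPM in vector cells. Their part in the Srsf2 count was not tested. Hnrnpd, the mRNA decay factor AUF1, averaged 229 ± 3.75 CPM in F133V cells and 179 ± 3.31 CPM in vector cells (0.35 ± 0.030). Sf3a3 was lower, at 41.2 ± 1.07 CPM in F133V cells and 54.4 ± 3.07 CPM in vector cells (-0.40 ± 0.039). Sf3b3 had 199, 203 and 207 CPM in F133V cells and 202, 198 and 193 CPM in vector cells, a log2 fold change of 0.04 ± 0.027 that was not called (adjusted p = 0.221).

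Among the 4 olaparib comparisons in cancer cells, the most members were called in F133V cocultures. There 9 of 50 members were higher and 35 lower with olaparib, where 39.3% of all genes were higher and 37% lower, and the median log2 fold change was -0.23 over members and 0.02 over all genes. Sf3b3, Srsf4, Srsf11 and Sf3b4, 4 of the 50, were lower by more than 1.5 times, against 19.5% of all genes, and by library size alone 2 were (Sf3b3 and Srsf4), against 13.2%. By library size alone the median of all genes was 0.23 and 19 members were higher and 19 lower; of all calls 63.5% were then higher, against 51.5% on the TMM scale, and the log2 fold change of every member shifted by 0.21. On the TMM scale 14 of 20 hnRNPs fell and 5 rose, 6 of 7 Sm proteins fell, 6 of 10 SR proteins fell and 3 rose, and all 3 SF3a subunits fell. By library size alone the same classes had 8 hnRNPs lower and 8 higher, 4 Sm proteins lower and 1 higher, 2 SR proteins lower and 6 higher, and 1 SF3a subunit lower. The DMSO group of this comparison is the F133V coculture described above, so both comparisons share those 3 libraries. Epithelial and prostate markers summed to 124 to 129 CPM with olaparib and 367 to 394 CPM with DMSO, and mesenchymal markers to 5170 to 5240 CPM with olaparib and 2650 to 2760 CPM with DMSO. Their part in the members' change was not tested.

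Sf3b3 had 199, 203 and 207 CPM with olaparib, against 389, 393 and 387 CPM with DMSO, a log2 fold change of -0.94 ± 0.027 (adjusted p = 1.94e-28). Srsf4, an SR protein first described as SRp75, had 58.9, 58.7 and 59.0 CPM with olaparib and 102, 106 and 105 CPM with DMSO (-0.83 ± 0.033, adjusted p = 7.43e-24). In both, every olaparib library was below every DMSO library, and by library size alone the log2 fold changes were -0.73 and -0.62. The opposite-strand gene Gm12992 overlaps 43% of the exon bases of Srsf4 and had 11.8 to 13.1 CPM with olaparib and 10.3 to 11.0 CPM with DMSO. Srsf11, an SR-related protein, averaged 148 ± 2.38 CPM with olaparib and 227 ± 4.99 CPM with DMSO (-0.62 ± 0.038). Sf3b4 averaged 77.8 ± 3.14 CPM with olaparib and 117 ± 2.78 CPM with DMSO (-0.59 ± 0.031). Snrpd1 averaged 28.9 ± 0.560 CPM with olaparib and 42.7 ± 0.269 CPM with DMSO (-0.56 ± 0.039). These were lower with olaparib in every library, as was Snrpb, which averaged 114 ± 1.95 CPM with olaparib and 164 ± 6.59 CPM with DMSO (-0.52 ± 0.038). Hnrnpd rose to 229 ± 3.75 CPM with olaparib, against 191 ± 3.35 CPM with DMSO (0.26 ± 0.031). Hnrnpa3, an hnRNP A/B protein, averaged 513 ± 7.89 CPM with olaparib and 444 ± 10.1 CPM with DMSO (0.21 ± 0.032), and Srsf1 averaged 219.7 ± 3.94 CPM with olaparib and 199.7 ± 5.01 CPM with DMSO (0.14 ± 0.040). The adjusted p-values of these 7 members ran up to 0.00196.

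Some of the other spliceosome lists are given for the same comparison, where 39.3% of all genes were higher and 37% lower. Library size counts are in parentheses. The lists of other splicing regulators, snRNP assembly factors, and U1, U5, U4/U6 and minor spliceosome proteins are left out here. Branch site and early recognition genes had 16 of 17 lower and 1 higher (13 and 1 by library size alone), and Sf1 averaged 364 ± 3.38 CPM with olaparib and 616 ± 1.67 CPM with DMSO (-0.76 ± 0.023). Of the SR-related proteins and SR kinases 18 of 21 were lower and 0 higher (13 and 5), with Clk2 at 82.8 ± 1.18 CPM with olaparib and 148 ± 1.36 CPM with DMSO (-0.83 ± 0.031). Among the catalytic and PRP19 complexes 20 of 22 were lower and 2 higher (16 and 3), among nonsense-mediated decay factors 8 of 10 lower and 1 higher (7 and 2), and among the exon junction complex and export genes 12 of 16 lower and 0 higher (11 and 4). LSm proteins had 4 of 10 lower and 2 higher (3 and 4).

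In the other 3 settings fewer members were called. In vector monocultures 5 of 50 were higher (Hnrnpa0, Hnrnpdl, Hnrnpul1, Sf3b1 and Sf3b2) and 15 lower with olaparib, where 15.3% of all genes were higher and 15.1% lower. There Sf3b6 averaged 41.4 ± 0.236 CPM with olaparib and 49.9 ± 0.692 CPM with DMSO (-0.27 ± 0.036), and Snrpb averaged 108 ± 2.04 CPM with olaparib and 126 ± 2.95 CPM with DMSO (-0.22 ± 0.038). Sf3b1, the SF3b subunit most often mutated in human cancers, averaged 462 ± 8.27 CPM with olaparib and 411 ± 8.61 CPM with DMSO (0.17 ± 0.023). Lyz2, 1 of the 12 macrophage markers, stood at 3.57 and 4.60 CPM by library size in 2 of these DMSO libraries, against 0.738 CPM in the third. The 12 markers summed to 13.4 to 20.3 CPM in the DMSO libraries and 16.5 to 18.8 CPM in the olaparib libraries. Without the 2 DMSO libraries with the most Lyz2 fewer members were called in either direction, with the olaparib libraries all kept. That leaves 1 DMSO library, which is assumed to vary like the libraries of the other groups. In vector cocultures 0 members were higher and 17 lower by edgeR's test (1 higher at an unadjusted p under 0.05, and 1 by DESeq2), where 12.6% of all genes were higher and 10.9% lower. Srsf7, an export adaptor among the SR proteins, averaged 87.8 ± 0.322 CPM with olaparib and 96.2 ± 2.68 CPM with DMSO (-0.13 ± 0.032, adjusted p = 0.00208). The count of lower members in vector cocultures was 9 without DMSO replicate 2 or 3, 10 without olaparib replicate 2 and 7 without olaparib replicate 3.

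In F133V monocultures 9 members were higher and 17 lower with olaparib, where 18.2% of all genes were higher and 17.9% lower, or 19 and 10 by library size alone, under which 74.6% of all calls were higher, against 50.5% on the TMM scale. The Sm proteins went one way: all 7 fell, and 6 by library size alone. Snrpg had 27.7, 30.1 and 27.2 CPM with olaparib, against 36.8, 34.9 and 34.5 CPM with DMSO (-0.32 ± 0.046, adjusted p = 3.51e-07). Snrpd1 averaged 38.3 ± 2.22 CPM with olaparib and 46.2 ± 0.836 CPM with DMSO (-0.27 ± 0.038), and Snrpb averaged 130.2 ± 11.4 CPM with olaparib and 155 ± 5.73 CPM with DMSO (-0.25 ± 0.038), in each case with no overlap between the groups. Of the 20 hnRNPs 7 rose and 1 fell, or 14 and 0 by library size alone. The count of higher members was 5 without olaparib replicate 1 and 17 without olaparib replicate 2. Hnrnpu was called at 155, 114 and 151 CPM with olaparib, against 113, 114 and 125 CPM with DMSO (0.26 ± 0.067), although the groups overlapped.

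Of the 4 comparisons of coculture against monoculture, the one in F133V cells with DMSO had the most members higher. There 31 of 50 were higher and 9 lower in coculture, where 35.6% of all genes were higher and 34.8% lower, and Hnrnpa0, Srsf4 and Hnrnpdl, 3 of the 50, were higher by more than 1.5 times, against 15.4% of all genes. On the library size scale no member was higher by that much and Hnrnpll, Sf3b5 and Snrpa1 were lower by that much, where 9.79% of all genes were higher and 26.7% lower. The median log2 fold change was 0.17 over members and 0.01 over all genes on the TMM scale. By library size alone, which moved the median of all genes to -0.20, 17 members were higher and 24 lower, and 34.6% of all calls were higher, against 50.6%. Every member's log2 fold change shifted by -0.21. Of the 20 hnRNPs 18 rose and 2 fell (9 and 5 by library size alone), and the 6 SF3b subunits divided into 4 that rose and 2 that fell on either scale. Epithelial and prostate markers summed to 367 to 394 CPM in coculture and 101 to 105 CPM in monoculture, and their part was not tested.

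Hnrnpa0 had 277, 281 and 273 CPM in coculture, against 159, 170.0 and 152 CPM in monoculture (0.79 ± 0.033, adjusted p = 9.74e-23). Srsf4 had 102, 106 and 105 CPM in coculture and 70.1, 67.2 and 64.3 CPM in monoculture (0.64 ± 0.033, adjusted p = 6.3e-20). In both genes the 3 cocultures were above the 3 monocultures, with log2 fold changes of 0.58 and 0.43 by library size alone. Hnrnpdl, a paralog of Hnrnpd, averaged 310.3 ± 2.99 CPM in coculture and 201 ± 3.24 CPM in monoculture (0.62 ± 0.027). Sf3b3 averaged 389.7 ± 2.94 CPM in coculture and 272 ± 7.57 CPM in monoculture (0.52 ± 0.027). Sf3b5 had 32.4, 33.8 and 33.9 CPM in coculture, against 47.5, 48.3 and 48.9 CPM in monoculture (-0.53 ± 0.042, adjusted p = 2.32e-14), with no overlap. Hnrnpll fell to 43.6 ± 1.36 CPM in coculture, against 60.5 ± 0.726 CPM in monoculture (-0.47 ± 0.037). Snrpa1, a U2 protein, fell to 25.6 ± 2.01 CPM in coculture, against 35.0 ± 0.914 CPM in monoculture (-0.45 ± 0.047), and Srsf3, a small SR protein that couples splicing to export, fell to 151 ± 5.37 CPM in coculture, against 191 ± 1.49 CPM in monoculture (-0.34 ± 0.030).

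In F133V cells with olaparib, 20 members were higher and 20 lower in coculture, where 26.7% of all genes were higher and 26.5% lower. Hnrnpa3 averaged 513 ± 7.89 CPM in coculture and 382 ± 32.1 CPM in monoculture (0.42 ± 0.033). Hnrnpa0 averaged 196 ± 6.85 CPM in coculture and 156 ± 2.14 CPM in monoculture (0.32 ± 0.033). Snrpc fell to 32.1 ± 0.810 CPM in coculture, against 45.2 ± 2.08 CPM in monoculture (-0.50 ± 0.044), and Hnrnpll fell to 49.4 ± 0.489 CPM in coculture, against 65.3 ± 3.82 CPM in monoculture (-0.40 ± 0.035). In vector cells with DMSO, 12 members were higher and 14 lower in coculture, where 23.4% of all genes were higher and 18.6% lower, and by library size alone 4 were higher and 19 lower, with 42.2% of all calls higher, against 55.7%. Without the 2 DMSO monocultures with the most Lyz2 fewer members were called in either direction, with 1 monoculture library assumed to vary like those of the other groups. In vector cells with olaparib 5 were higher (Hnrnpa3, Sf3b6, Snrpd2, Snrpd3 and Srsf5) and 15 lower, where 25.5% and 18.5% of all genes were. Hnrnpa3 rose in vector cocultures by log2 fold changes of 0.31 ± 0.033 with DMSO and 0.25 ± 0.033 with olaparib, and Hnrnpa1, an hnRNP that opposes SR proteins in splice site choice, changed by -0.22 ± 0.032 and -0.27 ± 0.032.

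Interaction terms tested whether these effects differed between settings. For genotype by coculture in DMSO, 29 of 50 members had a higher and 8 a lower coculture effect in F133V cells than in vector cells, where 30.2% and 32.5% of all genes did, and by library size alone the counts were 17 and 14. For genotype by olaparib in coculture, 10 were higher and 28 lower in F133V cells, where 35.4% and 32% of all genes were, or 20 and 13 by library size alone. For coculture by olaparib in F133V cells, 9 were higher and 33 lower in coculture, where 32.9% and 31.5% were, or 13 and 17. By library size alone 35.7%, 65.9% and 61.4% of all calls in these 3 terms were higher, against 48.1%, 52.6% and 51.1% on the TMM scale. In monoculture the genotype by olaparib term called 6 higher and 7 lower, where 13.3% and 10.9% were. By library size alone it called 21 and 1, but 82.7% of all calls were then higher, against 54.9%. The median log2 difference was then 0.08 over members and 0.11 over all genes. On the TMM scale the monoculture term called 14 higher without F133V olaparib replicate 2. Without vector DMSO replicate 1 or 3, vector olaparib replicate 1 or F133V DMSO replicate 2 it called 4 lower. Sf3b3 was called in the first 3 terms given, with log2 differences of 0.69 ± 0.038, -0.85 ± 0.038 and -0.70 ± 0.038 (adjusted p = 1.17e-18, 1.26e-21 and 6.79e-19), and by library size alone of 0.53, -0.65 and -0.57. These terms all use the F133V cocultures in DMSO.

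In macrophages, more members were called higher than lower opposite F133V cells in DMSO, and more lower than higher opposite F133V cells in olaparib. In DMSO 29 of 50 were higher and 11 lower in partners of F133V cells than in partners of vector cells, where 25.5% of the 14262 tested genes were higher and 28.1% lower, and the median log2 fold change was 0.08 over members and -0.01 over all genes. In olaparib 4 were higher (Hnrnpc, Snrpa, Srsf5 and Srsf11) and 32 lower, where 17.6% of genes were higher and 17.6% lower, and the medians were -0.10 and 0.00. By library size alone the counts were 33 and 9 in DMSO, and 5 and 19 in olaparib, with 59.3% and 75.6% of all calls higher. Members took 0.793 to 0.817% of gene counts opposite F133V cells in DMSO and 0.739 to 0.743% opposite vector cells in DMSO, and 0.679 to 0.687% opposite F133V cells in olaparib and 0.700 to 0.707% opposite vector cells in olaparib, with no overlap in either pair. The 12 macrophage markers summed to 9270 to 9500 CPM opposite F133V cells and 10700 to 10900 CPM opposite vector cells in DMSO, and to 9080 to 9120 CPM opposite F133V cells and 10200 to 10300 CPM opposite vector cells in olaparib. In DMSO the 4 mesenchymal markers, of which Col1a1 was at 0 opposite F133V cells, summed to 1190 to 1220 CPM opposite F133V cells and 2550 to 2630 CPM opposite vector cells. Their part in the members' change was not tested. By class in DMSO, 8 of 10 SR proteins were higher and 1 lower (9 and 1 by library size alone) and 5 of 7 Sm proteins higher and 0 lower on either scale. In olaparib 16 of 20 hnRNPs were lower and 1 higher (9 and 1), and 7 of 10 SR proteins lower and 2 higher (4 and 2).

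Srsf1 had 199.7, 209 and 215 CPM opposite F133V cells in DMSO, against 182, 174 and 174 CPM opposite vector cells in DMSO (0.23 ± 0.022, adjusted p = 2.74e-13). Srsf7 had 83.1, 85.6 and 88.2 CPM opposite F133V cells and 74.1, 68.3 and 72.9 CPM opposite vector cells (0.26 ± 0.029, adjusted p = 1.46e-10). Both rose without overlap. Srsf2, whose exons are partly shared with Mettl23 and Mfsd11, averaged 309.5 ± 7.33 CPM opposite F133V cells and 260.1 ± 4.07 CPM opposite vector cells (0.25 ± 0.019). In the same groups Mfsd11 had 56.8 to 58.1 CPM opposite F133V cells and 39.7 to 43.9 CPM opposite vector cells. Mettl23 had 6.27 to 6.54 CPM opposite F133V cells and 10.1 to 10.9 CPM opposite vector cells. The part of these 2 genes in the Srsf2 count was not tested. Sf3b6 averaged 36.03 ± 1.75 CPM opposite F133V cells and 28.6 ± 0.826 CPM opposite vector cells (0.33 ± 0.045), and Snrpa, which binds a stem-loop of U1 RNA, averaged 82.2 ± 1.88 CPM opposite F133V cells and 67.9 ± 1.81 CPM opposite vector cells (0.27 ± 0.028). Hnrnph3 fell to 19.9 ± 0.883 CPM opposite F133V cells, against 24.7 ± 0.253 CPM opposite vector cells (-0.31 ± 0.050), and its paralog Hnrnph2 fell to 73.5 ± 1.60 CPM opposite F133V cells, against 90.1 ± 1.08 CPM opposite vector cells (-0.29 ± 0.026). These rises and falls were past the spread of the libraries, and no groups overlapped. In olaparib, Sf3b3 averaged 213 ± 3.98 CPM opposite F133V cells and 259 ± 3.41 CPM opposite vector cells (-0.28 ± 0.019, adjusted p = 1.92e-17). Sf3a1, the SF3a120 subunit, averaged 82.8 ± 2.03 CPM opposite F133V cells and 99.1 ± 0.147 CPM opposite vector cells (-0.26 ± 0.025), and Hnrnpa2b1, an hnRNP A/B protein, averaged 369 ± 2.84 CPM opposite F133V cells and 439.8 ± 4.32 CPM opposite vector cells (-0.25 ± 0.016). Srsf1, higher opposite F133V cells in DMSO, was lower there in olaparib and averaged 155 ± 0.679 CPM opposite F133V cells and 177 ± 1.77 CPM opposite vector cells (-0.19 ± 0.022). Srsf5 was 1 of the 4 that rose, and averaged 303 ± 5.33 CPM opposite F133V cells and 287 ± 1.00 CPM opposite vector cells (0.08 ± 0.018).

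**Figure D4:**
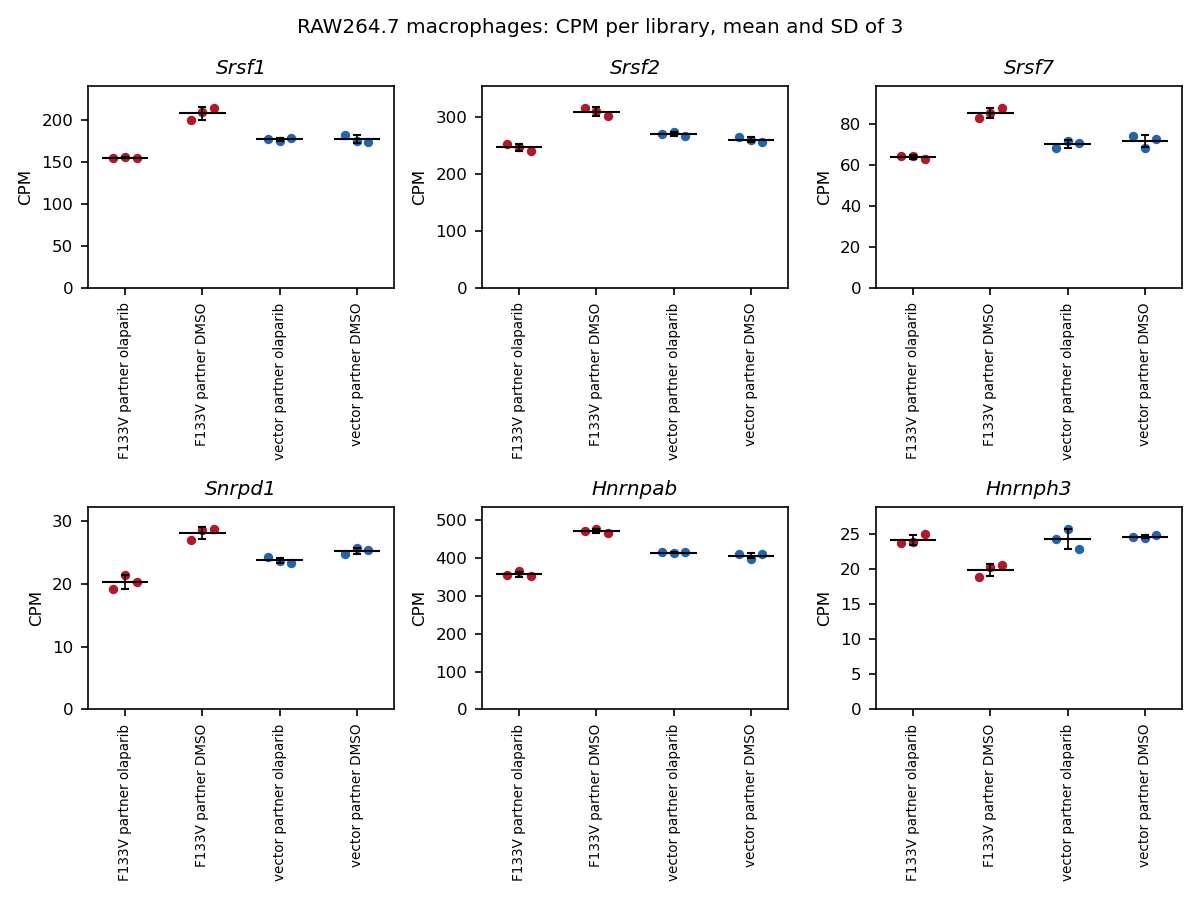
CPM on the TMM scale of 6 members in the 4 macrophage groups, with 1 point per library, a bar at the mean of 3 and whiskers of 1 SD. Srsf1, Srsf2, Srsf7 and Hnrnpab are highest opposite F133V cells in DMSO and lowest opposite F133V cells in olaparib, and Hnrnph3 is lowest opposite F133V cells in DMSO.

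For olaparib against DMSO, members of the 2 kinds of partner were counted apart. Opposite F133V cells 9 of 50 members were higher and 34 lower with olaparib, where 28.5% of all genes were higher and 29% lower. By library size alone 6 and 39 were, with 36.7% of all calls higher, against 49.6% on the TMM scale. The members' median log2 fold change was -0.16 on the TMM scale. The mesenchymal markers summed to 2600 to 2610 CPM with olaparib and 1190 to 1220 CPM with DMSO opposite F133V cells, and their part was not tested. Opposite vector cells 5 were higher (Hnrnpd, Hnrnpdl, Sf3b3, Snrpb and Srsf2) and 5 lower (Hnrnpa1, Hnrnpc, Hnrnph1, Hnrnpul1 and Srsf11), where 14% and 14.5% of all genes were. By library size alone 1 was higher and 27 lower, but only 14.7% of all calls were then higher, against 49.1% on the TMM scale. The median log2 fold change by library size was -0.08 over members and -0.08 over all genes. On the TMM scale 3 were higher without DMSO replicate 2, or without olaparib replicate 2. Snrpd1 had 19.1, 21.3 and 20.4 CPM with olaparib, against 27.0, 28.6 and 28.7 CPM with DMSO, in partners of F133V cells (-0.47 ± 0.047, adjusted p = 1.37e-12). Srsf1 had 155, 156 and 155 CPM with olaparib and 199.7, 209 and 215 CPM with DMSO (-0.42 ± 0.022, adjusted p = 1.06e-22). Neither gene's groups overlapped. Srsf7 averaged 64.1 ± 0.897 CPM with olaparib and 85.6 ± 2.56 CPM with DMSO (-0.42 ± 0.030), and Srsf3 averaged 98.4 ± 2.31 CPM with olaparib and 128 ± 2.53 CPM with DMSO (-0.38 ± 0.025). The Sm protein Snrpf, whose exon bases overlap other genes for 85.4%, averaged 22.0 ± 0.911 CPM with olaparib and 30.0 ± 0.879 CPM with DMSO (-0.45 ± 0.044). Hnrnph3 rose to 24.2 ± 0.711 CPM with olaparib, against 19.9 ± 0.883 CPM with DMSO (0.28 ± 0.049), and Srsf4 rose to 62.2 ± 2.37 CPM with olaparib, against 54.5 ± 1.21 CPM with DMSO (0.19 ± 0.031). Opposite vector cells, Hnrnpdl averaged 124 ± 0.695 CPM with olaparib and 111 ± 2.50 CPM with DMSO (0.16 ± 0.023).

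The term for partner by olaparib called 9 of 50 members higher and 31 lower, where 25.7% of all genes were higher and 23.7% lower. By library size alone the counts were 11 and 31, with 53.9% of all calls higher. By class, 7 of 10 SR proteins were lower and 2 higher, 5 of 7 Sm proteins lower and 0 higher, and 12 of 20 hnRNPs lower and 4 higher (12 and 6 by library size alone, with the SR and Sm counts the same). Hnrnpab had 355, 365 and 352 CPM with olaparib and 472, 477 and 468 CPM with DMSO opposite F133V cells, and 416, 414 and 416 CPM with olaparib and 410.3, 399 and 410.3 CPM with DMSO opposite vector cells. Its olaparib effect was lower opposite F133V cells by a log2 difference of -0.43 ± 0.024 (adjusted p = 1.13e-21). Epithelial and prostate markers summed to at most 0.229 CPM in the macrophage libraries.

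Macrophages against cancer cells, both from vector cocultures in DMSO, were compared in 1 fit of all 36 libraries with its own scale. Of 50 members 17 were higher and 27 lower in macrophages, where 39.8% of 17295 genes were higher and 42.4% lower, or 15 and 32 by library size alone. Past 1.5 times, 3 were higher (Hnrnpll, Hnrnpul1 and Snrpb2) and 7 lower (Hnrnpa1, Snrpf, Snrpd3, Snrpe, Sf3b6, Hnrnpdl and Hnrnpd), against 27.6% and 29.9% of genes. On the library size scale 2 were higher (Hnrnpll and Hnrnpul1) and 9 lower by that much, where 25.3% and 32.5% of genes were. Hnrnpa1 had 171, 166 and 172 CPM in macrophages, against 384, 406 and 399 CPM in cancer cells (-1.22 ± 0.030, adjusted p = 4.91e-40). Snrpd3, an Sm protein, had 33.9, 35.5 and 37.2 CPM in macrophages and 69.7, 67.9 and 67.9 CPM in cancer cells (-0.95 ± 0.037, adjusted p = 1.86e-30). Among the 7 Sm proteins 5 were lower and 1 higher in macrophages (6 and 1 by library size alone), with Snrpf at -1.13 ± 0.039 and Snrpe at -0.86 ± 0.052 as log2 fold changes. Hnrnpll averaged 91.6 ± 1.76 CPM in macrophages and 53.6 ± 1.40 CPM in cancer cells (0.78 ± 0.035), and Hnrnpul1, a relative of Hnrnpu, averaged 283 ± 3.93 CPM in macrophages and 168 ± 1.44 CPM in cancer cells (0.75 ± 0.028). Snrpb2, which binds a stem-loop of U2 RNA, averaged 41.5 ± 0.750 CPM in macrophages and 26.1 ± 0.823 CPM in cancer cells (0.67 ± 0.041). With 1 line of each cell type, the type and the line cannot be told apart.

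**Figure D5:**
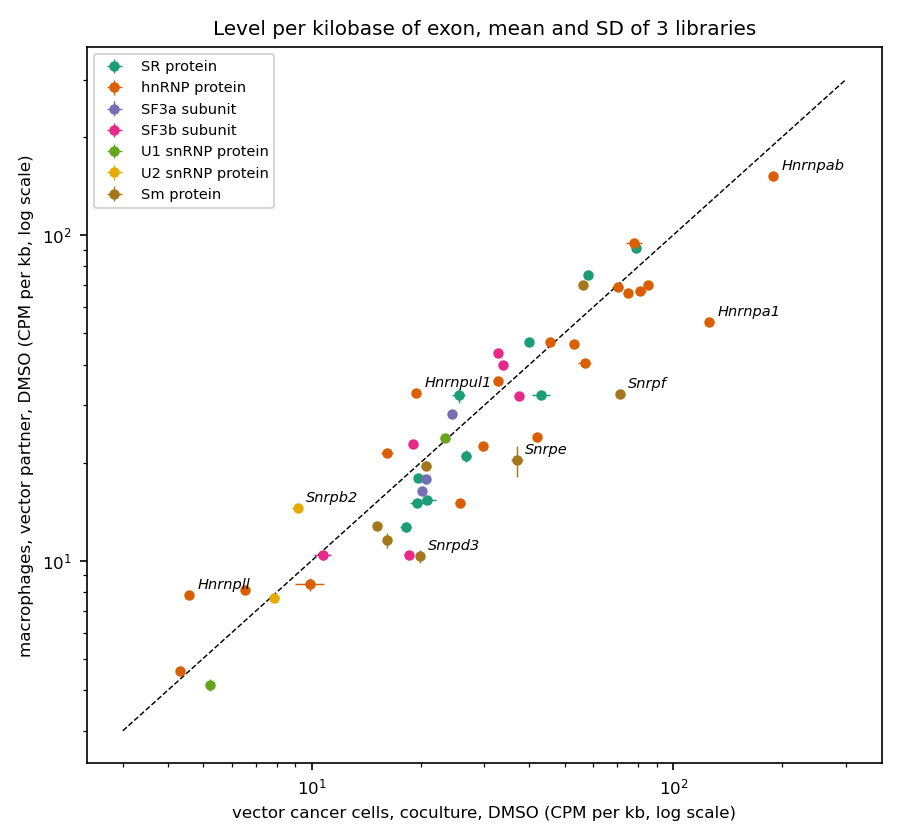
Level of each of the 50 members in macrophages opposite vector cells in DMSO (vertical axis) against vector cancer cells cocultured in DMSO (horizontal axis), in CPM per kb of exon on log axes, with 1 point per member at the mean, whiskers of 1 SD (n = 3) and a dashed line where both are equal. Medians are 23.3 CPM per kb in macrophages and 25.6 CPM per kb in cancer cells, and Hnrnpa1 and Snrpf lie farthest below the line.

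Some members share sequence with other genes, and the counts are uncertain there because the sources do not give the strand setting. The exon bases of Snrpf overlap other genes for 85.4%, those of Srsf4 for 43%, Hnrnpab for 29.1%, Hnrnpf for 26.5% and Srsf2 for 25.3%, against 3% for Sf3b3. All possible 50-base reads of each member's longest protein-coding transcript were matched on both strands to transcripts of other genes. For Hnrnpa1 46.4% of them also occur in another gene, for Sf3b4 51.2%, for Srsf4 65.4%, for Hnrnpf 67.3% and for Snrpf 89.5%. The only such gene for Srsf4 was Gm12992, which overlaps it on the opposite strand. Of the 50 members 24 (48%) have an annotated nonsense-mediated decay transcript and 38 (76%) a retained-intron transcript, against 28.6% and 58.7% of 12429 protein-coding genes tested in cancer cells. Counts per gene do not separate these transcripts from the productive mRNA.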

How the data were processed

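RNA from 36 libraries, 3 in each of 12 groups, was sequenced by the authors after TRIzol extraction, per the labels. The deposited values are read counts per gene, not normalized, made by the authors. The submitters' processing notes list STAR, TopHat, HTSeq, DESeq2 and the build GRCm38, and give no versions, annotation or strand setting. The 5 HTSeq summary lines were kept out of library sizes and tests. Groups come from the group label of each sample, because the genotype labels of the macrophages are not uniform and 3 macrophage titles omit the partner. No 2 libraries of a group held identical counts.

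The counts were tested in R 4.3.3 with edgeR 4.0.16 (glmQLFit and glmQLFTest) after filterByExpr with a minimum count of 10 and TMM scaling. Cancer cells (15962 genes), macrophages (14262 genes) and all libraries together (17295 genes, used only for macrophages against cancer cells) had a fit each, and 17 comparisons of 2 groups and 5 interactions were made. Adjusted p-values are Benjamini-Hochberg over all genes of a fit, and called means an adjusted p under 0.05. Standard errors are the log2 fold change divided by the square root of its F statistic. The scripts were tested on simulated counts with known changes. The alternatives were relative log expression (RLE) scaling, library size alone, no filter, DESeq2 1.42.0, only the groups compared, protein-coding genes only, the replicate number as a block, and each library left out in turn. Leaving out the 2 vector monocultures in DMSO with the most Lyz2 and a call past 1.5-fold were added after seeing the data.

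The members, the functional lists and the genes named were chosen with earlier results of these data known. Some cell type markers that entered the sums are not reported here by name. Named members come from a set of 15 (Srsf1, Srsf2, Srsf3, Srsf6, Srsf7, Hnrnpa1, Hnrnpa2b1, Hnrnpk, Hnrnpu, Sf3b1, Sf3a3, Snrpb, Snrpn, Snrpa1 and Snrpd1) that may be named whatever its groups do, in each comparison of 2 groups from up to the 4 largest rises and 4 largest falls among called members whose groups do not overlap, and in each interaction from the 3 with the smallest adjusted p. Other spliceosome genes come from the 3 of each list with the smallest adjusted p. The text names fewer than these, and Sf3b3 in F133V against vector cocultures with olaparib and members listed beside a count of 5 or fewer were named after their values were seen. Cancer cells and macrophages were scaled separately, so CPM of members are set side by side between them only in the joint fit. Marker sums are each on the scale of their own cell type. Promoter sequences are from RefSeq and gene positions from GENCODE M21, both on GRCm38. The correlation of the deviations of same-numbered libraries ran between -0.052 and 0.044. No pairing by replicate number was therefore detected, which does not exclude one, and the labels state none.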

Additional observations from a re-analysis of the deposited data

Results flagged for a closer look

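The results below are those in which the effect of 1 factor differed between levels of another by an interaction term, in edgeR's quasi-likelihood test, adjusted by Benjamini-Hochberg over all tested genes. Only the 3 members with the smallest adjusted p in each term are given.

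For genotype by coculture in DMSO, the coculture effect was higher in F133V cells than in vector cells by log2 differences of 0.69 for Sf3b3 (adjusted p = 1.17e-18), 0.52 for Hnrnpl, which binds CA-rich RNA (4.76e-18), and 0.71 for Hnrnpa0 (1.59e-16). For genotype by olaparib in coculture, the olaparib effect was lower in F133V cells by -0.85 for Sf3b3 (1.26e-21), -0.85 for Srsf4 (4.62e-19) and -0.45 for Sf3b2 (1.52e-14). For coculture by olaparib in F133V cells, the olaparib effect was lower in coculture by -0.70 for Sf3b3 (6.79e-19), -0.70 for Srsf4 (4.9e-16) and -0.71 for Srsf11 (1.41e-14). These 3 terms share the F133V cocultures in DMSO, in which each of these 6 members had its highest mean among the 8 cancer cell groups on the TMM scale. In monoculture the olaparib effect in F133V cells differed from that in vector cells by -0.35 for Snrpg (4.54e-05), 0.23 for Hnrnpll (0.00057) and 0.22 for Sf3b6 (0.00103).

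In macrophages, the olaparib effect was lower opposite F133V cells than opposite vector cells by -0.43 for Hnrnpab (1.13e-21), -0.38 for Srsf2 (4.18e-17) and -0.32 for Hnrnpa2b1 (3.35e-17). Exons of Hnrnpab and Srsf2 overlap other genes for 29.1% and 25.3% of their bases. Causes of these differences were not tested.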

How the results depend on the processing

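All 119 values of genes named for a comparison kept their direction and their call under RLE scaling, library size alone, no filter, DESeq2, only the groups compared, protein-coding genes only and the replicate block. With single libraries left out, 5 values of Srsf3 and Snrpd1 lost the call for olaparib against DMSO in vector cocultures. Counts of members called were within 1.5 times of those reported except as follows, and the cause of these shifts was not tested. By library size alone they became 19 higher and 24 lower for F133V against vector in coculture with DMSO, 19 and 10 for olaparib against DMSO in F133V monoculture, and 19 and 19 in F133V coculture. On that scale coculture against monoculture gave 4 higher in vector cells with DMSO, 17 higher and 24 lower in F133V cells with DMSO, and 12 higher in F133V cells with olaparib. Of all calls 42.2%, 34.6% and 37.4% were higher there. In macrophages library size alone gave 19 lower for F133V against vector partners in olaparib, where 75.6% of all calls were higher. It gave 1 higher and 27 lower for olaparib against DMSO opposite vector cells, where 14.7% of all calls were higher. The interactions became 21 and 1 (genotype by olaparib, monoculture), 20 and 13 (coculture), 17 and 14 (genotype by coculture) and 17 lower (coculture by olaparib). In these 4 terms 82.7%, 65.9%, 35.7% and 61.4% of all calls were higher by library size alone. Without the 2 vector monocultures in DMSO with the most Lyz2, fewer members were called in either direction in 2 comparisons. These were olaparib against DMSO in vector monoculture and coculture against monoculture in vector cells with DMSO. In each case 1 library was left in that group, assumed to vary like the other groups. With only the groups compared, olaparib gave 4 higher in F133V monoculture and 1 in vector coculture, and coculture 24 lower in vector cells with olaparib. DESeq2 gave 1 higher for olaparib in vector coculture and 5 higher for coculture by olaparib, which was also 5 with RLE scaling and 4 with protein-coding genes only. That last setting gave 7 higher for coculture in vector cells with DMSO. For olaparib in macrophages opposite vector cells, RLE scaling, no filter and protein-coding genes only each gave 8 higher, and no filter gave 4 lower for genotype by olaparib in monoculture. With 1 library left out, genotype by olaparib in monoculture ran between 5 and 14 higher (14 without F133V olaparib replicate 2) and between 4 and 9 lower (4 without vector DMSO replicate 1 or 3, vector olaparib replicate 1 or F133V DMSO replicate 2). Olaparib in F133V monoculture ran between 5 and 17 higher (5 without olaparib replicate 1, 17 without replicate 2). Opposite vector cells, olaparib in macrophages ran between 3 and 5 higher (3 without replicate 2 of either group). In vector coculture olaparib ran between 7 and 14 lower (9 without DMSO replicate 2 or 3, 10 and 7 without olaparib replicates 2 and 3). With the replicate number as a block, a pairing that the data do not show, F133V against vector in coculture with DMSO had 35 members higher and 8 lower, and all 44 counts stayed within 1.5 times. Hnrnpu has the widest standard error among members in cancer cells, and gene counts do not show isoforms.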

Other observations

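Other spliceosome genes in the macrophages were counted from the same functional lists, and only some of the lists are given here. Opposite F133V cells, olaparib against DMSO lowered 10 of 16 snRNP assembly factors and raised 1 (12 and 0 by library size alone), and lowered 9 of 16 exon junction complex and export genes and raised 2 (11 and 0). Of 10 LSm proteins 6 were lower (7 by library size alone). Nonsense-mediated decay factors had 6 of 10 higher and 1 lower, which by library size alone was 3 and 2. In the same comparison 28.5% of all genes were higher and 29% lower.

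In cancer cells with olaparib in coculture, 15 of 17 branch site and early recognition genes were higher in F133V cells than in vector cells (13 higher and 1 lower by library size alone), while 9 of 10 LSm proteins were lower on either scale. There 28.8% of all genes were higher and 31.2% lower, and the other lists are not given.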
